A study of Mus musculus with 6 samples.

Results

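The genes described here are 40 factors of ribosome biogenesis and RNA polymerase I, read from the deposited count table by exact match of the gene symbol. All 40 were found among the 55453 symbols of the table, and all 40 passed the filter on low counts. They are nucleolar proteins that transcribe, modify, cleave and fold ribosomal RNA (rRNA), many of them known as targets of the transcription factor MYC. By role they are 3 genes of RNA polymerase I and rDNA transcription (Polr1a, Polr1b, Mybbp1a), 3 nucleolar scaffold and chaperone proteins (Ncl, Npm1, Nolc1), 3 core proteins of the box C/D snoRNP (Fbl, Nop56, Nop58) and 3 of the box H/ACA snoRNP (Dkc1, Nhp2, Gar1). A further 9 act in the small-subunit (SSU) processome, which makes 18S rRNA (Utp15, Wdr43, Wdr75, Heatr1, Utp20, Rrp9, Nop14, Noc4l, Ddx10). The other members are 5 factors of late 40S assembly (Rrp12, Bysl, Ltv1, Tsr1, Nob1) and 14 factors of 60S assembly (Nop2, Nop16, Noc2l, Noc3l, Rrs1, Bop1, Pes1, Wdr12, Wdr74, Gnl2, Gnl3, Ppan, Ddx18, Ddx21).

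The data are raw read counts from poly(A)-selected RNA sequencing of 6 libraries. Their source is SB28, a glioma line from mouse with the strain label C57BL/6. They comprise 3 libraries labelled PP2AcKO (genotype PP2A KO) and 3 labelled PP2AcWT (genotype wild type), with 38735864 to 49344079 counts each. PP2Ac is the catalytic subunit of protein phosphatase 2A, and the series title ties its loss to STING and type I interferon signalling. The design text of the series instead speaks of SB28 tumours in hosts whose myeloid cells lack PP2Ac through LysM-driven Cre, so the labels do not settle which cells carry the deletion, or how it was made. They also do not say that replicates came from separate cultures, so p-values may measure technical spread alone.

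Levels are given as CPM, the usual depth-normalised read count, with the library size scaled by the trimmed mean of M-values (TMM). Ppp2ca, the targeted gene, stood at 217, 187 and 193 CPM in PP2AcKO 1, 2 and 3, against 274, 244 and 247 CPM in PP2AcWT 1, 2 and 3. The KO libraries were all lower (log2 fold change -0.36, SE 0.08, adjusted p = 0.00377, by the quasi-likelihood test of edgeR with p-values adjusted by Benjamini-Hochberg across the 14877 tested genes, as for each adjusted p given here), but most of the message remained. Counts per gene also hold reads from exons outside a deleted part, so they check the labels only in part. Of the glioma and glial markers, Vim, Nes and Sox2 were abundant, with summed marker levels of 2038 to 2168 CPM in PP2AcKO and 5136 to 5355 CPM in PP2AcWT, while Olig2 had 0 counts in all 6 libraries and Gfap was near 0. The 3 that could be tested all fell, and the part of this shift in the results on the 40 genes was not tested. Summed myeloid markers ranged from 4.41 to 5.03 CPM in PP2AcKO and from 3.27 to 3.60 CPM in PP2AcWT, nearly all of it Cd68, and the leukocyte marker Ptprc stayed at or under 0.252 CPM. Lymphocyte markers summed to at most 0.0896 CPM in PP2AcKO and 0.0979 CPM in PP2AcWT, with Cd3e and Nkg7 at 0 throughout. Oligodendrocyte markers summed to 1.46 to 1.61 CPM in PP2AcKO and 0.920 to 1.93 CPM in PP2AcWT, and neuronal markers to 0.439 to 0.587 CPM in PP2AcKO and 1.27 to 2.04 CPM in PP2AcWT, with Rbfox3 at 0. Endothelial markers summed to 419 to 456 CPM in PP2AcKO and 397 to 429 CPM in PP2AcWT, almost all from Cdh5, with Pecam1 at or under 0.390 CPM. Kdr, the other marker of that list, was the only one called, at 7.78 ± 0.401 CPM in PP2AcKO and 1.65 ± 0.331 CPM in PP2AcWT (SD, n = 3 each, log2 fold change 2.23, edgeR adjusted p = 2.33e-06), and the part of this in the results on the 40 genes was not tested. In bulk RNA, fewer cells of a type and less RNA per cell cannot be told apart.

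A ribosome starts as a long precursor rRNA that RNA polymerase I transcribes in the nucleolus. Small nucleolar RNAs (snoRNAs) bound to core proteins guide its methylation (box C/D) and pseudouridylation (box H/ACA), and large assemblies of helicases, GTPases and WD-repeat proteins then cleave it and build the 40S and 60S subunits. MYC is known to raise transcription of this machinery by binding E-boxes with its partner MAX, and PP2A is known to remove a phosphate that stabilises the MYC protein. These genes are usually high in growing tumour cells and known to move together.

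The canonical E-box, CACGTG, was searched in RefSeq promoter windows of the GRCm38.p6 build, each from 250 bases before to 50 bases after the annotated start. The motif reads the same on both strands. Windows were at hand for 34 of the 40 members. Of these 34 genes, 7 (20.6%) held the motif, against 2187 of 27025 genes (8.09%) in the whole promoter table. That table is not limited to the tested genes, and many members were known as MYC targets beforehand, so the shares are a description only. The 7 genes were Mybbp1a, Wdr43, Utp20, Ltv1, Tsr1, Nop2 and Pes1. Windows of 4 of them are shown because the genes pair an E-box near the start with clear changes in opposite directions: Ltv1 (chr10:13193088-13193387, minus strand) and Wdr43 (chr17:71615965-71616264, plus strand) rose in PP2AcKO, whereas Mybbp1a (chr11:72441077-72441376, plus strand) and Nop2 (chr6:125131633-125131932, plus strand) fell. Capitals mark the E-box, which begins 28 bases after the annotated start in Ltv1, 17 after it in Wdr43 and 40 after it in Mybbp1a, and at position -60 relative to it in Nop2.
Ltv1: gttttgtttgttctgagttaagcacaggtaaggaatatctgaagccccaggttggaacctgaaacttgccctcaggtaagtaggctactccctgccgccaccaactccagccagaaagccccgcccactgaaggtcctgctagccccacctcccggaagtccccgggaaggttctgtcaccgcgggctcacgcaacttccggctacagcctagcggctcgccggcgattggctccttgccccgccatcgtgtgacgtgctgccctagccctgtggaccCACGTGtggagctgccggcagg
Wdr43: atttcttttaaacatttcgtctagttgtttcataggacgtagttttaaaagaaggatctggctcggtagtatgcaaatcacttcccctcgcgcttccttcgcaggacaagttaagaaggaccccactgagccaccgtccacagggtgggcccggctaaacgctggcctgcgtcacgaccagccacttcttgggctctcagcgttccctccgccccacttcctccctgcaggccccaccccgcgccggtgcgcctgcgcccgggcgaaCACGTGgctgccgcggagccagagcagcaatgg
Mybbp1a: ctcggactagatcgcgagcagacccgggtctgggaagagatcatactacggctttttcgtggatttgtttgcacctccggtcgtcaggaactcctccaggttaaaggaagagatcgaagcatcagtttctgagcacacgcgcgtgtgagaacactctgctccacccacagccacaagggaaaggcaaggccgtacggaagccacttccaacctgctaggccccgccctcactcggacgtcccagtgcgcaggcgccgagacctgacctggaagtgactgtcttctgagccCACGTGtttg
Nop2: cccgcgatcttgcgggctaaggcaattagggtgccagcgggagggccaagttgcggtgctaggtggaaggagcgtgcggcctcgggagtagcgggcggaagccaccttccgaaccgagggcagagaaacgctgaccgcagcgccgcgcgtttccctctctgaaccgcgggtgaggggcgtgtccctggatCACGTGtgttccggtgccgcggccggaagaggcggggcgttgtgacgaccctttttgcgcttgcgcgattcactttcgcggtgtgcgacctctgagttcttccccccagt

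The 40 genes did not move as a block. In PP2AcKO, 14 rose, 16 fell and the other 10 missed the threshold of 0.05, and their median log2 fold change was -0.04, beside -0.01 over all tested genes. The 30 called members make up 75% of 40, whereas 64% of all tested genes were called (31.9% higher and 32.1% lower), and 69.7% of the 5485 tested genes within the members' own range of mean CPM. The share of calls is therefore near the background and is read as no result about the group. With library totals in place of TMM as scaling the split was 9 higher and 17 lower. All tested genes shifted the same way, to 4150 higher and 5495 lower from 4752 and 4773 with TMM. The CPM values of the groups did not overlap for 29 members, 15 with every PP2AcKO library below every PP2AcWT library and 14 above, beside 68.3% of all tested genes without overlap.

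Changes were mostly small. Log2 fold changes ran from -1.005 for Bop1 to 1.28 for Utp15, and only 3 members (7.5%) passed a test against a fold change of 1.5, where 26.7% of all tested genes passed. These 3 were Utp15 (adjusted p = 1.67e-05 in that test) and Ltv1 (0.0333) among those that rose and Bop1 (0.00345) among those that fell, all by edgeR. Of the 40 members, 5 called genes fell (Bop1, Ppan, Nop2, Nhp2, Mybbp1a) and 3 rose (Utp15, Ltv1, Nop14) by at least 1.5-fold. Of all tested genes 19.7% were lower and 19.6% higher by that measure. Among the 5485 tested genes within the members' range of mean CPM, 749 were lower and 1005 higher. The summed level of the 40 genes was 7456, 6957 and 6966 CPM in PP2AcKO 1, 2 and 3, against 8153, 7503 and 7606 CPM in PP2AcWT 1, 2 and 3. The means were 7126 ± 285 CPM in PP2AcKO and 7754 ± 349 CPM in PP2AcWT (SD, n = 3 each), and PP2AcKO 1 came close to PP2AcWT 2 without overlap. Ncl and Npm1 made most of that gap, since the sum without them was 5005 ± 59.2 CPM in PP2AcKO and 5106 ± 21.0 CPM in PP2AcWT (SD, n = 3 each).

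**Figure D1:**
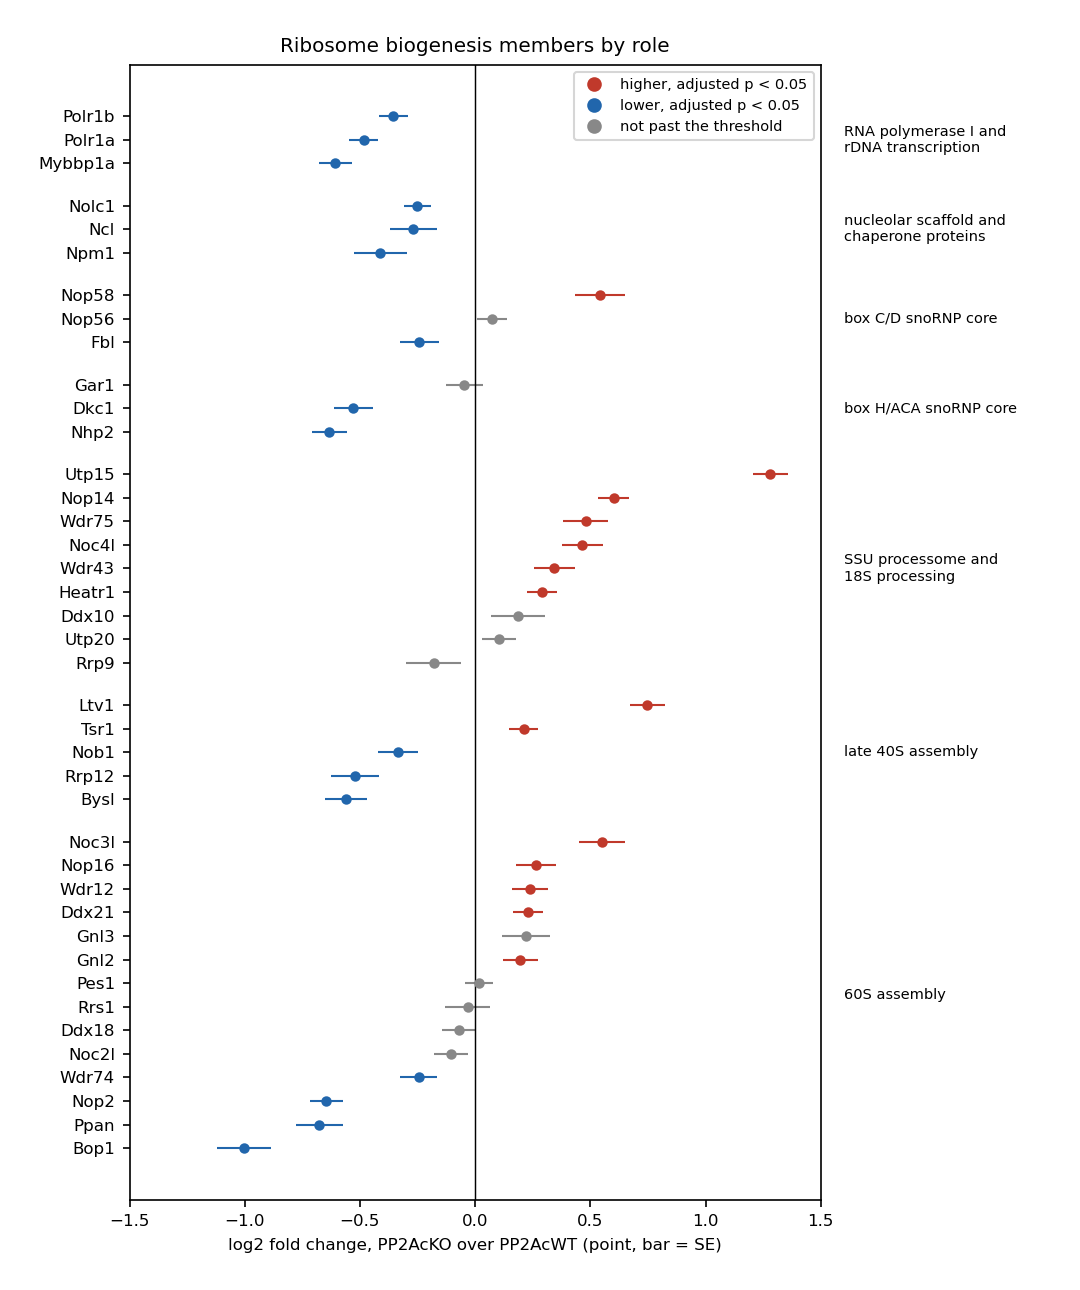
Log2 fold change of each of the 40 members, PP2AcKO over PP2AcWT (points), with its standard error (bars), in blocks by role; red marks genes that rose, blue genes that fell and grey genes that did not pass. The 3 polymerase I and 3 scaffold genes lie left of 0, 8 of the 9 SSU processome genes lie right of it, and the late 40S and 60S blocks spread to both sides.

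All 3 genes of RNA polymerase I and rDNA transcription fell, where 32.1% of all tested genes were called lower. Polr1a, the largest subunit of the polymerase, which forms its active site with Polr1b, had 181, 191 and 178 CPM in PP2AcKO 1, 2 and 3, against 247, 267 and 257 CPM in PP2AcWT 1, 2 and 3. The PP2AcKO libraries all lay below the PP2AcWT libraries, and the message was 1.40-fold lower (log2 fold change -0.48, SE 0.06, adjusted p = 0.000178). Polr1b, the second-largest subunit, had 57.02, 60.4 and 59.3 CPM in PP2AcKO 1, 2 and 3, against 73.8, 76.4 and 75.97 CPM in PP2AcWT 1, 2 and 3, a smaller drop with no overlap (log2 fold change -0.36, SE 0.06, adjusted p = 0.00102). Mybbp1a, a nucleolar protein that binds the transcription factor MYB and takes part in rRNA synthesis and processing, was the most abundant of the 3, at 424, 472 and 459.7 CPM in PP2AcKO 1, 2 and 3, against 644, 714 and 704 CPM in PP2AcWT 1, 2 and 3. It was 1.52-fold lower (log2 fold change -0.61, SE 0.07, adjusted p = 8.41e-05). Their summed level was 694 ± 30.9 CPM in PP2AcKO and 1020 ± 48.8 CPM in PP2AcWT (SD, n = 3 each), 31.9% lower. The direction of the 3 genes was the same under every scaling tried.

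The 3 genes of nucleolar scaffold and chaperone proteins also fell, beside 32.1% of all tested genes called lower. Npm1, which encodes nucleophosmin, a histone chaperone that holds the outer nucleolus together, had 841, 697 and 711 CPM in PP2AcKO 1, 2 and 3, against 1159.8, 886 and 946 CPM in PP2AcWT 1, 2 and 3. Library 1 was the highest in both groups, and the groups did not overlap (log2 fold change -0.41, SE 0.11, adjusted p = 0.0113). Npm1 is known to have processed copies in the mouse genome that could share its reads. Ncl, which encodes nucleolin, an rRNA-binding protein, had 1542, 1286 and 1287 CPM in PP2AcKO 1, 2 and 3, against 1865, 1529.6 and 1559 CPM in PP2AcWT 1, 2 and 3, so that PP2AcKO 1 lay above PP2AcWT 2. Its call was the weakest of the 3 (log2 fold change -0.27, SE 0.10, adjusted p = 0.0469). It did not hold in edgeR with DESeq2 size factors (adjusted p = 0.0565) or with a stricter count filter (0.0532), and leaving out single libraries gave 0.155 without PP2AcKO 2, 0.156 without PP2AcKO 3, 0.14 without PP2AcWT 1 and 0.0578 without PP2AcWT 3. With the trend in GC content removed, described with the library differences, its adjusted p was 1.03e-06 by edgeR. Nolc1, which encodes a chaperone of snoRNPs, had 225, 227 and 238 CPM in PP2AcKO 1, 2 and 3, against 271, 279 and 272 CPM in PP2AcWT 1, 2 and 3, with no overlap (log2 fold change -0.25, SE 0.06, adjusted p = 0.00513).

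The core proteins of the box C/D snoRNP went 3 ways. Nop58, one of the paired scaffold proteins that hold the snoRNA, rose 1.46-fold, with 347, 292 and 289 CPM in PP2AcKO 1, 2 and 3, against 245, 195 and 197 CPM in PP2AcWT 1, 2 and 3 (log2 fold change 0.54, SE 0.11, adjusted p = 0.00209). Nop56, its partner, had 258, 249 and 256 CPM in PP2AcKO 1, 2 and 3, against 253, 231 and 243 CPM in PP2AcWT 1, 2 and 3, and the groups overlapped (log2 fold change 0.07, edgeR adjusted p = 0.335). Without both libraries numbered 1 Nop56 passed the threshold (edgeR adjusted p = 0.018), as it did with the GC trend removed (0.0405). Fbl, the fibrillarin gene, whose protein carries the methyltransferase activity, had 84.2, 101 and 93.1 CPM in PP2AcKO 1, 2 and 3, against 105, 109 and 116 CPM in PP2AcWT 1, 2 and 3. The PP2AcKO libraries lay just below the others (log2 fold change -0.24, SE 0.08, adjusted p = 0.0297). Fbl did not pass the edgeR test when single libraries were left out, with adjusted p values of 0.0713 without PP2AcKO 1, 0.0829 without PP2AcKO 3, 0.0725 without PP2AcWT 2 and 0.113 without PP2AcWT 3, nor with the GC trend removed (0.0572).

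In the box H/ACA snoRNP, 2 of 3 members fell (66.7%), beside 32.1% of all tested genes called lower. Dkc1, the pseudouridine synthase dyskerin, which also belongs to telomerase, had 116, 99.1 and 109 CPM in PP2AcKO 1, 2 and 3, against 169, 147 and 152 CPM in PP2AcWT 1, 2 and 3. It was 1.44-fold lower with no overlap (log2 fold change -0.53, SE 0.08, adjusted p = 0.000508). Nhp2, a small RNA-binding protein of the same particle, had 41.99, 47.4 and 47.98 CPM in PP2AcKO 1, 2 and 3, against 69.5, 69.2 and 74.4 CPM in PP2AcWT 1, 2 and 3, and was 1.55-fold lower (log2 fold change -0.63, SE 0.08, adjusted p = 9.67e-05). Gar1, another core protein, did not pass and overlapped between the groups, at 46.5, 49.8 and 48.95 CPM in PP2AcKO 1, 2 and 3, against 45.4, 52.1 and 52.4 CPM in PP2AcWT 1, 2 and 3 (log2 fold change -0.05, SE 0.08, edgeR adjusted p = 0.624). With the GC trend removed the sign of Gar1 turned to 0.10, and with the replicate block added to that fit it passed as higher (edgeR adjusted p = 0.0462). Nop10, the remaining core protein and not among the 40, fell with Dkc1 and Nhp2, to 18.3 ± 2.62 CPM in PP2AcKO against 31.8 ± 4.37 CPM in PP2AcWT (SD, n = 3 each, log2 fold change -0.80, SE 0.13, adjusted p = 0.000657).

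The SSU processome held the largest rise among the 40. Of its 9 members, 6 rose, 0 fell and 3 did not pass by edgeR, a share called of 66.7%, near the 64% of all tested genes (31.9% higher), with the same 6 and 0 under each of the 3 other scalings and in DESeq2, and a median log2 fold change of 0.34. With the replicate block 8 rose and 1 fell, in a fit that called 77.3% of all tested genes. At an unadjusted p under 0.05 the count of fallen genes was also 0. Utp15 rose most, with 119.7, 109 and 109.6 CPM in PP2AcKO 1, 2 and 3, against 47.03, 43.3 and 48.9 CPM in PP2AcWT 1, 2 and 3. Each PP2AcKO library lay far above every PP2AcWT library, a 2.43-fold rise (log2 fold change 1.28, SE 0.08, adjusted p = 1.15e-06). Utp15 belongs to the t-UTP group, which is the first to bind the nascent precursor and is tied to rDNA transcription in yeast and human cells. The other t-UTP genes among the 40 rose as well. Wdr43 had 256, 221 and 216 CPM in PP2AcKO 1, 2 and 3, against 198, 175 and 172 CPM in PP2AcWT 1, 2 and 3 (log2 fold change 0.34, SE 0.09, adjusted p = 0.00784). Wdr75 had 148, 122 and 126 CPM in PP2AcKO 1, 2 and 3, against 105, 87.3 and 91.95 CPM in PP2AcWT 1, 2 and 3 (log2 fold change 0.48, SE 0.10, adjusted p = 0.00222). Heatr1, the largest protein of that group, had 142, 132 and 129 CPM in PP2AcKO 1, 2 and 3, against 112, 108 and 109 CPM in PP2AcWT 1, 2 and 3 (log2 fold change 0.29, SE 0.07, adjusted p = 0.00403). In all 3 the highest PP2AcWT library, number 1, stayed below the lowest PP2AcKO library. Utp4 and Nol11, counted with the t-UTP group but not among the 40, did not pass by edgeR. Utp4 had a log2 fold change of 0.14 (adjusted p = 0.0726), with all PP2AcKO libraries above the PP2AcWT libraries. Nol11 had -0.09 (adjusted p = 0.419), with overlap.

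Further along the same processome, Nop14 and Noc4l, partners in yeast, rose together. Nop14 had 213, 199 and 202 CPM in PP2AcKO 1, 2 and 3, against 142, 129.5 and 133 CPM in PP2AcWT 1, 2 and 3, a 1.52-fold rise with tight replicates (log2 fold change 0.60, SE 0.07, adjusted p = 5.18e-05). Noc4l had 61.6, 73.2 and 70.5 CPM in PP2AcKO 1, 2 and 3, against 45.2, 51.5 and 51.99 CPM in PP2AcWT 1, 2 and 3 (log2 fold change 0.47, SE 0.09, adjusted p = 0.00172). The other members of the block did not pass. The giant HEAT-repeat gene Utp20 averaged 174 ± 13.3 CPM in PP2AcKO and 162 ± 6.34 CPM in PP2AcWT (log2 fold change 0.10, edgeR adjusted p = 0.247). Ddx10, a helicase gene, averaged 63.8 ± 7.17 CPM in PP2AcKO and 56.04 ± 8.12 CPM in PP2AcWT (log2 fold change 0.19, edgeR adjusted p = 0.195, and 0.024 without PP2AcWT 1). Rrp9, a protein of the U3 snoRNP, averaged 49.2 ± 7.23 CPM in PP2AcKO and 55.7 ± 5.54 CPM in PP2AcWT (log2 fold change -0.18, edgeR adjusted p = 0.215; SD, n = 3 each for all). With the replicate number as a block in the edgeR fit, these 3 passed, with adjusted p = 0.0156 for Utp20, 0.000498 for Ddx10 and 0.00116 for Rrp9. Without both libraries numbered 1, Ddx10 (0.000103) and Rrp9 (0.0074) passed in edgeR too.

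**Figure D2:**
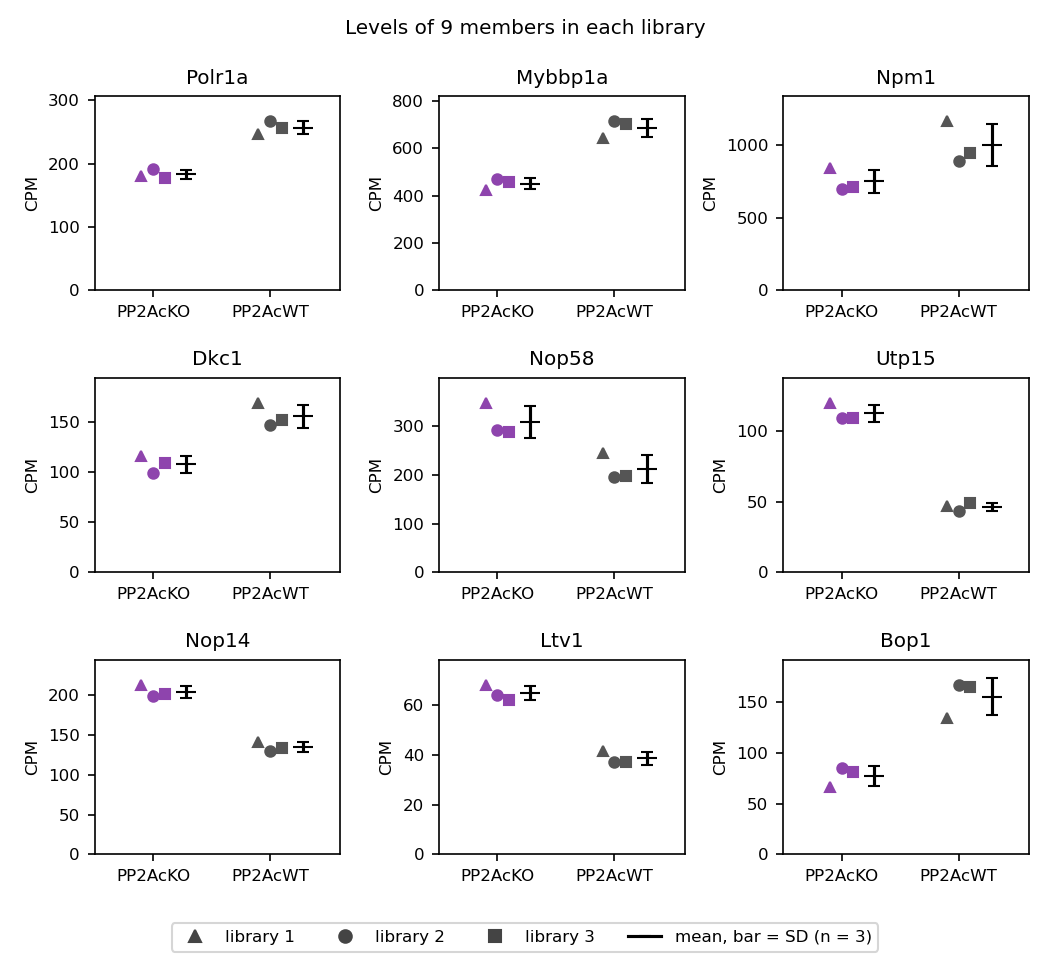
CPM of 9 members in each library, PP2AcKO left and PP2AcWT right; triangles, circles and squares are libraries 1, 2 and 3, and the bar beside them is the mean with its SD (n = 3). Utp15, Nop14, Ltv1 and Nop58 lie higher and Polr1a, Mybbp1a, Npm1, Dkc1 and Bop1 lower in PP2AcKO, in each case without overlap. All 9 are called members, and the 11 of the 40 members whose groups overlapped are not shown. Of all tested genes 68.3% did not overlap.

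All 5 factors of late 40S assembly passed the threshold, 2 upward and 3 downward, a share called of 100% from only 5 genes. Of all tested genes 64% were called, 31.9% higher and 32.1% lower. Ltv1, which leaves the pre-40S particle on phosphorylation, had 68.1, 64.3 and 62.3 CPM in PP2AcKO 1, 2 and 3, against 41.7, 37.3 and 37.1 CPM in PP2AcWT 1, 2 and 3. That is a 1.68-fold rise, the second-largest among the 40 (log2 fold change 0.75, SE 0.08, adjusted p = 3.37e-05). Tsr1, a GTPase-like factor that keeps immature 40S from joining translation, averaged 151 ± 3.12 CPM in PP2AcKO and 131 ± 5.55 CPM in PP2AcWT (SD, n = 3 each, log2 fold change 0.21, SE 0.06, adjusted p = 0.0163). Tsr1 lost the call by edgeR with upper-quartile factors (0.0703) or library totals (0.111) and on leaving out single libraries, with 0.0563 without PP2AcKO 3, 0.0651 without PP2AcWT 2 and 0.0875 without PP2AcWT 3. Exons of Srr on the opposite strand cover 32.3% of the Tsr1 exon bases, and since the strand setting of the counting is not given in the sources used here, reads of the pair cannot be told apart. Bysl, needed for pre-40S maturation, had 30.8, 36.8 and 36.1 CPM in PP2AcKO 1, 2 and 3, against 47.3, 53.8 and 51.9 CPM in PP2AcWT 1, 2 and 3 (log2 fold change -0.56, SE 0.09, adjusted p = 0.000605). Rrp12, known in yeast for the export of both subunits, had 37.7, 45.9 and 45.7 CPM in PP2AcKO 1, 2 and 3, against 54.96, 65.9 and 65.1 CPM in PP2AcWT 1, 2 and 3 (log2 fold change -0.52, SE 0.10, adjusted p = 0.00196). Both lay lower in every PP2AcKO library. Nob1, the endonuclease that makes the final cut of 18S rRNA, fell by less, averaging 46.8 ± 4.70 CPM in PP2AcKO and 59.1 ± 3.02 CPM in PP2AcWT (SD, n = 3 each, log2 fold change -0.33, SE 0.09, adjusted p = 0.00892).

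The 14 factors of 60S assembly were divided, with 5 that rose, 4 that fell and 5 that did not pass, a share called of 64.3% beside 64% of all tested genes, and summed levels of 1711 ± 9.11 CPM in PP2AcKO and 1739 ± 1.70 CPM in PP2AcWT (SD, n = 3 each). The count of rises depended on the setting. It was 2, with 4 that fell, with upper-quartile factors and 1, with 5 that fell, with library totals. Of all tested genes 4298 and 4150 were higher in these fits, against 4752 with TMM. It was also 2 without PP2AcKO 2, without PP2AcKO 3, without PP2AcWT 2 or without PP2AcWT 3, where 55.6% to 58.8% of all tested genes were called. It was 6 with the replicate block, without both libraries numbered 1 or without PP2AcWT 1. Those fits called 77.3%, 74.6% and 62.5% of all tested genes. The drop in Bop1 was the largest among the 40 genes. Bop1 had 66.03, 84.96 and 81.4 CPM in PP2AcKO 1, 2 and 3, against 134, 167 and 165 CPM in PP2AcWT 1, 2 and 3. Its highest PP2AcKO library was far below its lowest PP2AcWT library, and the message was 2.01-fold lower (log2 fold change -1.005, SE 0.12, adjusted p = 7.61e-05). Bop1, Pes1 and Wdr12 encode the PeBoW complex, which is needed to process 28S rRNA. Pes1 had 143, 151 and 150.4 CPM in PP2AcKO 1, 2 and 3, against 144, 147 and 149 CPM in PP2AcWT 1, 2 and 3, and these values overlapped (log2 fold change 0.02, SE 0.06, edgeR adjusted p = 0.832). Wdr12 rose slightly, with 65.3, 64.03 and 65.9 CPM in PP2AcKO 1, 2 and 3, against 60.8, 53.1 and 51.8 CPM in PP2AcWT 1, 2 and 3 (log2 fold change 0.24, SE 0.08, adjusted p = 0.0254). That call did not hold in edgeR with upper-quartile factors (0.0863), library totals (0.125) or the GC trend removed (0.476), nor on leaving out single libraries, with adjusted p values of 0.0502 without PP2AcKO 2, 0.0752 without PP2AcKO 3, 0.0943 without PP2AcWT 2 and 0.123 without PP2AcWT 3.

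Among the other 60S factors, Ppan and Nop2 fell. Ppan, known in yeast from early pre-60S particles, had 32.9, 40.9 and 37.9 CPM in PP2AcKO 1, 2 and 3, against 53.2, 62.2 and 63.2 CPM in PP2AcWT 1, 2 and 3 (log2 fold change -0.68, SE 0.10, adjusted p = 0.000402). Nop2, a methyltransferase of 28S rRNA and a classical proliferation antigen, had 96.4, 108 and 108 CPM in PP2AcKO 1, 2 and 3, against 156, 167 and 167 CPM in PP2AcWT 1, 2 and 3 (log2 fold change -0.65, SE 0.07, adjusted p = 5.58e-05). Neither overlapped between the groups, and both drops were over 1.5-fold. Wdr74, a WD-repeat factor of pre-60S particles, averaged 37.1 ± 2.38 CPM in PP2AcKO and 43.96 ± 2.65 CPM in PP2AcWT (SD, n = 3 each, log2 fold change -0.25, SE 0.08, adjusted p = 0.0248), and lost the edgeR call on leaving out single libraries, with 0.0606 without PP2AcKO 1, 0.0639 without PP2AcWT 2 and 0.109 without PP2AcWT 3.

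Noc3l rose clearly. It had 100.02, 83.5 and 83.8 CPM in PP2AcKO 1, 2 and 3, against 68.1, 57.1 and 57.3 CPM in PP2AcWT 1, 2 and 3 (log2 fold change 0.55, SE 0.10, adjusted p = 0.00125). Its partner Noc2l averaged 134 ± 6.44 CPM in PP2AcKO and 144 ± 9.72 CPM in PP2AcWT (log2 fold change -0.11, edgeR adjusted p = 0.241), with overlapping libraries. Noc2l passed with the replicate block (0.012), without both libraries numbered 1 (0.00859) and with library totals (0.0482), all in edgeR and all downward, but had a log2 fold change of 0.03 with the GC trend removed. Samd11 exons, on the other strand, lie over 20.9% of the exon bases of Noc2l. Ddx21, an abundant helicase that joins rRNA transcription to processing, had 539, 499 and 505 CPM in PP2AcKO 1, 2 and 3, against 456, 435 and 426 CPM in PP2AcWT 1, 2 and 3 (log2 fold change 0.23, SE 0.06, adjusted p = 0.0119). It did not pass in edgeR without PP2AcWT 3 (adjusted p = 0.0716) or with library totals (0.0754). The small rises of Nop16 and Gnl2 were also lost in several fits. Nop16, a pre-60S factor, averaged 42.5 ± 3.60 CPM in PP2AcKO and 35.4 ± 1.996 CPM in PP2AcWT (SD, n = 3 each, log2 fold change 0.27, SE 0.09, adjusted p = 0.0234), with edgeR values of 0.0797 without PP2AcKO 2, 0.0804 without PP2AcKO 3 and 0.0865 without PP2AcWT 2, 0.0692 with upper-quartile factors and 0.0959 with library totals. Gnl2, a nucleolar GTPase, averaged 107 ± 3.15 CPM in PP2AcKO and 93.7 ± 7.34 CPM in PP2AcWT (SD, n = 3 each, log2 fold change 0.20, SE 0.08, adjusted p = 0.0459), with edgeR values of 0.0584 without PP2AcKO 1, 0.0638 without PP2AcKO 2, 0.112 without PP2AcKO 3, 0.169 without PP2AcWT 2 and 0.12 without PP2AcWT 3, 0.156 with upper-quartile factors, 0.228 with library totals and 0.0633 without the count filter.

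Gnl3, which encodes the stem cell GTPase nucleostemin, averaged 144 ± 15.1 CPM in PP2AcKO and 123 ± 14.1 CPM in PP2AcWT and did not pass (log2 fold change 0.22, edgeR adjusted p = 0.0886). Leaving out PP2AcWT 1 (0.0166) or both libraries numbered 1 (8.65e-06), dropping the count filter (0.0356), adding the replicate block (3.16e-05) or removing the GC trend (0.0132) each brought its edgeR adjusted p under the threshold. Rrs1, which in yeast helps to place the 5S particle, averaged 104 ± 9.89 CPM in PP2AcKO and 107 ± 10.3 CPM in PP2AcWT (log2 fold change -0.03, edgeR adjusted p = 0.787). Ddx18, a helicase gene, averaged 106 ± 5.73 CPM in PP2AcKO and 111 ± 6.52 CPM in PP2AcWT (log2 fold change -0.07, edgeR adjusted p = 0.423; SD, n = 3 each for all). Neither passed, and their libraries overlapped. With the GC trend removed and the replicate block added, Ddx18 passed as lower (log2 fold change -0.08, edgeR adjusted p = 0.034).

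**Figure D3:**
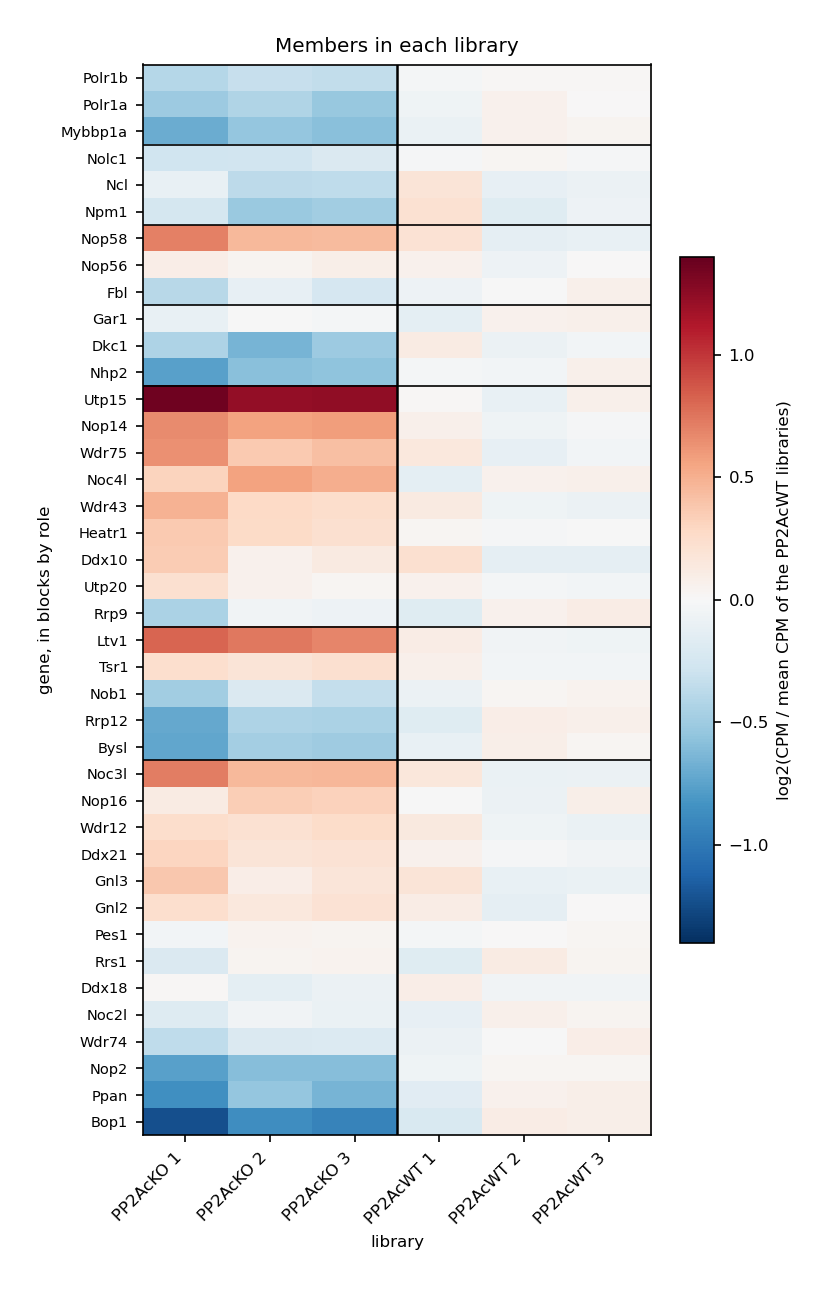
Each member in each library, as log2 of its CPM over its mean CPM in the 3 PP2AcWT libraries (colour scale; red higher, blue lower), with PP2AcKO left of the line and PP2AcWT right, and horizontal lines between roles. The 3 PP2AcKO columns run from 1.23 to 1.37 for Utp15 and from -1.24 to -0.87 for Bop1 and share their sign for all members but Rrs1, Pes1 and Ddx18, and the columns of the libraries numbered 1 differ from the other 2 of their group in shade.

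Ratios between partners of the same complex do not depend on the scaling factor of a library, but they do depend on the trend in GC content, described with the library differences. For 12 pairs, the log2 ratio of their counts was taken in each library. The pairs were picked by hand, and others, such as Dkc1 to Nhp2, were not taken. Where the second gene was Pes1, Nop56, Gar1 or Noc2l, none of which passed, the ratio largely restates the change of the first. The groups did not overlap for 9 of them, 5 with all PP2AcKO libraries above and 4 with all below, and each of these 9 had a two-sided exact permutation p of 0.1, the smallest that 3 libraries against 3 allow (0.133 after Benjamini-Hochberg adjustment over the 12). No pair could therefore pass 0.05 in this unpaired test. Of all tested genes taken singly 68.3% did not overlap, and no such share was taken for other ratios, so the 9 are a description only. The ratio of Bop1 to Pes1 was -0.95 ± 0.15 in PP2AcKO and 0.08 ± 0.15 in PP2AcWT (SD, n = 3 each), a 2.03-fold shift. Utp15 to Heatr1 was -0.25 ± 0.02 in PP2AcKO and -1.24 ± 0.08 in PP2AcWT, a 1.99-fold shift upward within the t-UTP group. Noc3l to Noc2l was -0.59 ± 0.22 in PP2AcKO and -1.25 ± 0.24 in PP2AcWT. Nhp2 to Gar1 was -0.08 ± 0.06 in PP2AcKO and 0.51 ± 0.10 in PP2AcWT, and Dkc1 to Gar1 was 1.16 ± 0.16 in PP2AcKO and 1.64 ± 0.22 in PP2AcWT. Nop58 to Nop56 was 0.28 ± 0.13 in PP2AcKO and -0.20 ± 0.13 in PP2AcWT, whereas Fbl to Nop56 was -1.46 ± 0.16 in PP2AcKO and -1.14 ± 0.12 in PP2AcWT. The shift was small for Polr1b to Polr1a, at -1.64 ± 0.05 in PP2AcKO and -1.77 ± 0.03 in PP2AcWT, and for Wdr12 to Pes1, at -1.19 ± 0.05 in PP2AcKO and -1.41 ± 0.15 in PP2AcWT. The groups overlapped for Noc4l to Nop14 (exact permutation p = 0.5), Wdr43 to Heatr1 (0.4) and Wdr75 to Heatr1 (0.2; SD, n = 3 each for all). The difference, PP2AcKO minus PP2AcWT, was also taken within each replicate number, a pairing that the labels do not state. For the 9 ratios without overlap its sign is fixed by the lack of overlap. For the 3 with overlap the difference also kept its sign in all 3 pairs, where 3 pairs allow no two-sided p under 0.25. It ran from -0.16 to -0.11 for Noc4l to Nop14, from 0.15 to 0.22 for Wdr75 to Heatr1 and from 0.02 to 0.09 for Wdr43 to Heatr1.

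With the GC trend removed, an alternative chosen after the data were seen, the difference of log2 fold changes moved by over 1.5 times for 7 of the 12 pairs. It was 0.01 for Wdr12 to Pes1 against 0.22 before, 0.26 against 0.47 for Nop58 to Nop56 and 0.41 against 0.65 for Noc3l to Noc2l. Fbl to Nop56 came to -0.21 against -0.32, and Dkc1 to Gar1 to -0.74 against -0.48. Noc4l to Nop14 came to -0.0038 against -0.14, and Wdr43 to Heatr1 changed sign, to -0.01 against 0.05. The other 5 moved less, among them Bop1 to Pes1, at -0.90 against -1.02, and Utp15 to Heatr1, at 0.96 against 0.99.

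**Figure D4:**
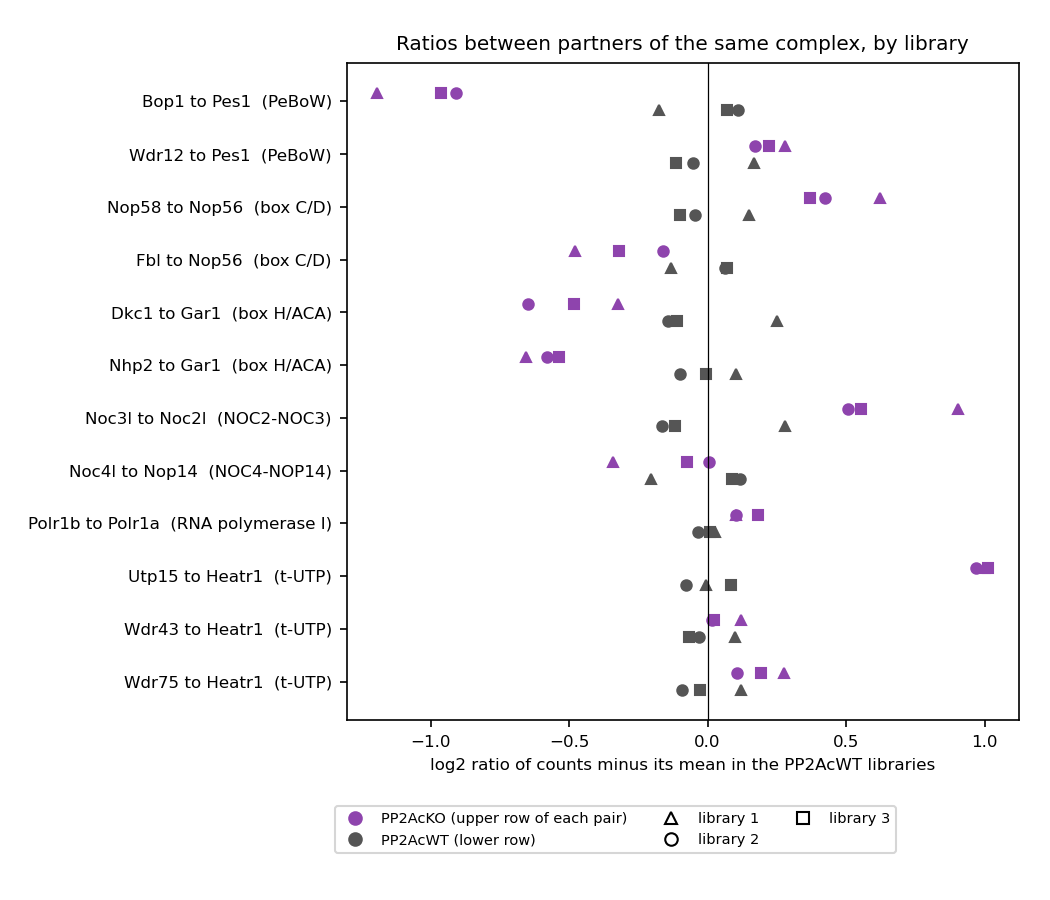
Log2 ratio of counts of 12 pairs of complex partners in each library, minus its mean in PP2AcWT (horizontal axis), with no correction for GC content; purple points in the upper row of each pair are PP2AcKO, grey points in the lower row PP2AcWT, and shapes are libraries 1 to 3. Bop1 to Pes1 lies about 1 log2 unit lower and Utp15 to Heatr1 about 1 log2 unit higher in PP2AcKO, while Noc4l to Nop14, Wdr43 to Heatr1 and Wdr75 to Heatr1 overlap.

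Levels of different genes were compared as CPM per kilobase of annotated exon, a scale that understates genes with long rare exons. Npm1 was the highest of the 40 in both groups, at 281 ± 29.7 in PP2AcKO and 374 ± 54.02 in PP2AcWT (SD, n = 3 each). Ncl came next at 135 ± 14.5 in PP2AcKO and 162 ± 18.2 in PP2AcWT. In these units their SDs were the largest of the 40, as were their levels, and the pair led in every library. Rank 3 was Ddx21 in PP2AcKO and Mybbp1a in PP2AcWT, as Mybbp1a stood at 77.8 ± 4.29 in PP2AcKO and 118 ± 6.54 in PP2AcWT and Ddx21 at 99.4 ± 4.14 in PP2AcKO and 84.8 ± 2.99 in PP2AcWT. Wdr12 was the lowest in both groups, at 5.44 ± 0.0793 in PP2AcKO and 4.62 ± 0.407 in PP2AcWT. Utp15 was rank 30 of the 40 in PP2AcKO and rank 39 in PP2AcWT, and Bop1 was rank 23 in PP2AcKO and rank 9 in PP2AcWT. In PP2AcKO, Bop1 stood at 26.2 ± 3.40 and Pes1 at 49.05 ± 1.47 CPM per kilobase, whereas in PP2AcWT Bop1 stood at 52.6 ± 6.15 and Pes1 at 48.5 ± 0.847, within the spread of Bop1.

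Both libraries numbered 1 stood apart from the others of their group in these genes, and the difference went with base composition. Across the 40 members, the excess of library 1 over libraries 2 and 3 had a Spearman correlation with transcript GC content of -0.897 in PP2AcKO and -0.943 in PP2AcWT, beside -0.747 in PP2AcKO and -0.715 in PP2AcWT over the 14792 tested genes with a GC value. These are correlations across genes of the same libraries, so the genes are not independent replicates. The fold change between the groups ran the same way, with a Spearman correlation of -0.525 across the members and -0.159 across all tested genes. The 14 members that rose had a median GC content of 46.0% (40.4% to 55.3%), the 16 that fell 53.8% (42.4% to 59.7%) and the 10 not called 50.4%. Over all tested genes the medians were 48.4% for those that rose and 51.1% for those that fell.

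Calls were therefore also made with the trend on GC content removed from each library, an alternative chosen after the data were seen. Of the 30 called members, 28 kept their call and direction, all but Fbl and Wdr12, and Nop56 and Gnl3 were added, which gave 15 that rose and 15 that fell beside 74.8% of all genes called. Utp15 then had a log2 fold change of 1.23 (SE 0.05), Ltv1 of 0.70 (SE 0.04) and Bop1 of -0.85 (SE 0.04). All 3 polymerase I genes, the 3 scaffold genes and the 6 SSU processome genes kept their calls. Dkc1 and Npm1, low in GC and lower in PP2AcKO, and Noc4l, high in GC and higher in PP2AcKO, ran against the trend. Without both libraries numbered 1, 35 members were called, 17 that rose and 18 that fell, beside 74.6% of all genes, and all 30 called with the full set were among them. With the replicate block the counts were also 17 and 18, beside 77.3% of all genes.

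**Figure D5:**
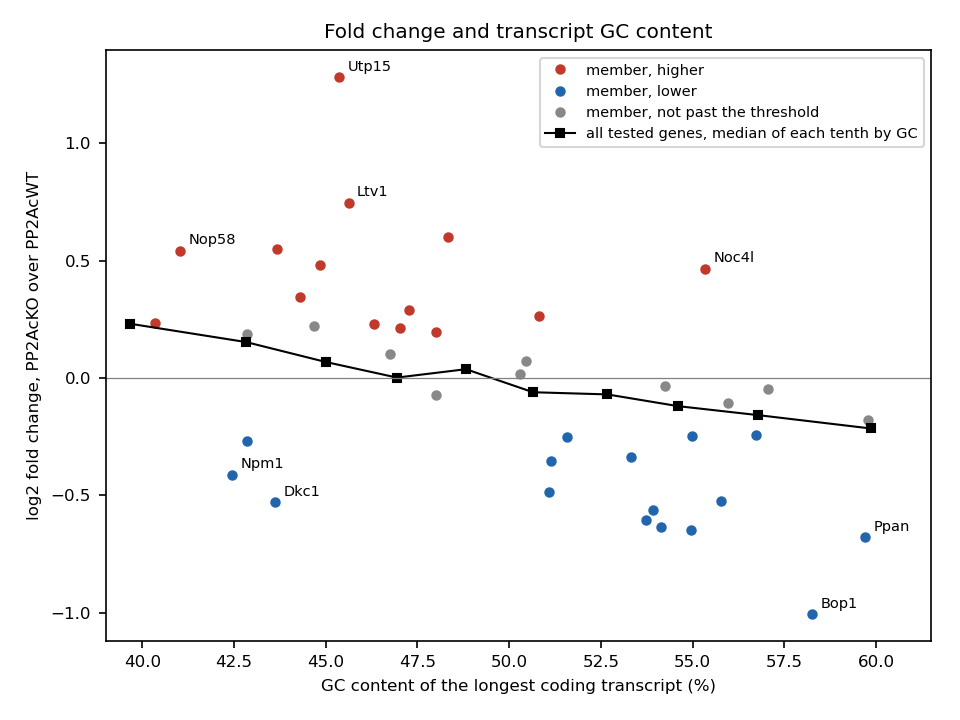
Log2 fold change, PP2AcKO over PP2AcWT, against the GC content of each member's longest coding transcript; the black line gives the median fold change of all tested genes in 10 equal bins by GC content. The bins run from 0.23 at 39.7% GC to -0.22 at 59.9% GC, while Utp15, Ltv1 and Noc4l lie far above the line and Npm1, Dkc1, Ppan and Bop1 far below it.

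Other genes of the pathway, listed by role but with earlier results of these data known, were divided too. Genes named from these lists below are those with the smallest adjusted p, apart from the polymerase I factors that fell. Of 103 further factors, all tested, 32 rose, 31 fell and 40 did not pass, and their log2 fold changes had a median of 0.04. The share called was 61.2%, beside 64% of all tested genes (31.9% higher and 32.1% lower), so these counts are at the background. Among 13 other subunits and factors of RNA polymerase I, 4 rose and 3 fell (53.8% called). The 4 were Twistnb, a subunit, at 63.7 ± 6.86 CPM in PP2AcKO and 37.3 ± 5.02 CPM in PP2AcWT (log2 fold change 0.77, SE 0.11, adjusted p = 0.00034), the termination factor Ttf1 (log2 fold change 0.38), the initiation factor Rrn3 (0.27) and Taf1b, of the promoter-binding complex (0.39). The 3 that fell were the subunits Polr1c (log2 fold change -0.42, edgeR adjusted p = 0.0193) and Polr1e (-0.27, 0.0228) and the factor Ubtf (-0.20, 0.0323). Without PP2AcKO 3 or without PP2AcWT 3, 0 of the 13 were called lower by edgeR, and without PP2AcWT 2 only 1. With the replicate block 5 were, in a fit that called 77.3% of all tested genes.

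Among 37 other SSU and 40S factors, 11 rose and 10 fell (56.8% called). With the replicate block 19 were higher, as without both libraries numbered 1. Calls over all tested genes also grew, from 64% to 77.3% with the block and 74.6% without those libraries. Riok1, a kinase of late pre-40S particles, stood at 60.4 ± 7.38 CPM in PP2AcKO and 31.8 ± 3.85 CPM in PP2AcWT (log2 fold change 0.93, SE 0.11, adjusted p = 0.000111), whereas Ddx49, a helicase gene, stood at 35.9 ± 3.64 CPM in PP2AcKO and 63.8 ± 6.85 CPM in PP2AcWT (log2 fold change -0.83, SE 0.11, adjusted p = 0.000131; SD, n = 3 each). The helicase gene Ddx47 (log2 fold change -0.49) and the GTPase gene Bms1 (-0.45) also fell. Among 43 other 60S factors, 15 rose and 12 fell (62.8% called), led by Pak1ip1 (0.85) and Sdad1 (0.66) upward and Ebna1bp2 (-0.57) and Ftsj3 (-0.47) downward.

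The list of snoRNP assembly factors and remaining core proteins held 6 of 10 that fell and 2 that rose (80% called; 1 rose with upper-quartile factors, library totals, without PP2AcWT 2 or without PP2AcWT 3). Ruvbl1, an ATPase that helps to build snoRNPs, stood at 45.6 ± 4.46 CPM in PP2AcKO and 88.1 ± 1.54 CPM in PP2AcWT (SD, n = 3 each, log2 fold change -0.95, SE 0.08, adjusted p = 1.22e-05). Nop10 fell as given above, Znhit3 fell (log2 fold change -0.58) and Znhit6 rose (0.37). Of 8 transcripts that host snoRNAs, 5 rose and 1 fell (75% called, beside 31.9% higher and 32.1% lower of all tested genes). This list was not recomputed under the other settings. Snhg12 stood at 36.2 ± 0.763 CPM in PP2AcKO and 15.9 ± 1.51 CPM in PP2AcWT (log2 fold change 1.19, SE 0.09, adjusted p = 4.46e-06), and Snhg1 (log2 fold change 0.86) and Snhg6 (0.78) rose too, whereas Snhg3 stood at 3.12 ± 1.06 CPM in PP2AcKO and 7.43 ± 0.891 CPM in PP2AcWT (log2 fold change -1.25, SE 0.21, adjusted p = 0.000775; SD, n = 3 each). Among the 40 members, 8 also carry snoRNA genes within their span on the same strand, 23 in all. They are Nop56 with 5, Nop58 with 4, Ncl, Wdr43 and Gnl3 with 3 each, Tsr1 and Ppan with 2 each and Dkc1 with 1, and both directions of change occur among them.

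Myc itself, whose product drives many of these genes, had 229.6, 262 and 259 CPM in PP2AcKO 1, 2 and 3, against 186, 211 and 205 CPM in PP2AcWT 1, 2 and 3. It was 1.25-fold higher in PP2AcKO (log2 fold change 0.32, SE 0.08, adjusted p = 0.00673), Mycl was lower at 2.69 ± 0.439 CPM in PP2AcKO and 6.95 ± 0.543 CPM in PP2AcWT (log2 fold change -1.37, SE 0.14, adjusted p = 3.56e-05; SD, n = 3 each), and Mycn had 0 counts in PP2AcKO and 1, 1 and 2 in PP2AcWT 1, 2 and 3. Of the 7 members with an E-box in the promoter window, 3 rose (Wdr43, Ltv1, Tsr1), 2 fell (Mybbp1a, Nop2) and 2 did not pass (Utp20, Pes1). Over all tested genes 31.9% were called higher and 32.1% lower. An ETS-type motif, CCGGAAG, searched on both strands, stood in 12 of 34 members (35.3%) beside 9.93% of genes in the promoter table, tested or not. Of these 12 members 4 rose, 5 fell and 3 did not pass. The palindromic NRF1 site stood in 0 of 34 windows beside 1.07% of genes. The E-box and the ETS-type motif thus occurred in genes that rose and in genes that fell, in counts too small to set against the shares over all tested genes.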

How the data were processed

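The authors deposited raw counts of reads by gene symbol, with a column for each library. The submitters' processing notes list, without roles, STAR 2.7.1a with HTSeq 0.11.2 for mm10 and GRCm38, as well as fastp 0.20.0, limma 3.48.3 and edgeR 3.34.0. Strand setting and annotation release: not given in the sources used here. Columns were matched by sample title. filterByExpr of edgeR 4.0.16 (R 4.3.3) kept 14877 of 55453 symbols, with at least 99.94% of each library's counts. Counts were scaled by TMM (factors 0.967 to 1.035) and compared with glmQLFTest, first tested on simulated data, with Benjamini-Hochberg adjustment over all tested genes at 0.05. CPM use the TMM-scaled library size. SE is the fold change over the root of its F statistic. Positions and exon lengths are from GENCODE M21 (GRCm38), matched for all 40 symbols, GC content from its longest coding transcript (percent of bases), promoters from RefSeq.

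The 40 members, the further lists and the rule for named genes (all members, Ppp2ca, Ppp2cb, Myc, and up to 4 genes of each further list by adjusted p) were chosen with earlier results of these data known. Polr1c, Polr1e, Ubtf, Utp4 and Nol11 are named beyond that rule. Ppp2cb averaged 125 ± 2.04 CPM in PP2AcKO and 85.9 ± 2.28 CPM in PP2AcWT (log2 fold change 0.54, SE 0.06, adjusted p = 6.34e-05; SD, n = 3 each). Snhg7 of the snoRNA host list was not analysed here.

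Replicate pairs of a group differed by 3.41 to 48.4 times the counting noise (chi-square per degree of freedom), which is more than 1 library counted again would give and does not show separate cultures. Deviations of same-numbered libraries from their group means correlated at 0.443, 0.161 and 0.15 for numbers 1, 2 and 3. PP2AcKO 2 with PP2AcWT 3 gave 0.189, and PP2AcKO 3 with PP2AcWT 2 gave 0.15. The data thus set the libraries numbered 1 apart but do not match numbers 2 and 3 as pairs, and the labels state no pairing. The fit with the number as a block was an alternative that assumes such pairs.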

Additional observations from a re-analysis of the deposited data

How the results depend on the processing

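Of the 30 called members, 22 kept their call and direction under all 17 alternatives other than the test against a fold change of 1.5: 9 that rose and 13 that fell. The other 8 (Ncl, Fbl, Tsr1, Nop16, Wdr12, Wdr74, Gnl2, Ddx21) lost it in at least 1. The cause of these losses was not tested. DESeq2 1.42.0 and limma-voom (limma 3.58.1) kept all 30. The replicate block kept all 30 and added Utp20, Rrp9, Ddx10, Noc2l and Gnl3 (17 higher, 18 lower), and changed no other call of a member. Against a fold change of 1.5, 2009 genes were higher and 1957 lower, with 2 and 1 among the members. In that test the counts higher and lower were 0 and 0 for other polymerase I factors, 2 and 1 for other SSU and 40S factors, 1 and 0 for other 60S factors and 0 and 1 for snoRNP assembly factors. Its own construction lowers every count. With library totals 9 members were higher, beside 4150 of all tested genes (4752 with TMM).

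Other polymerase I factors called lower were 5 with upper-quartile factors, library totals or the replicate block. Other SSU and 40S factors called higher were 19 with the block and 19 without both libraries numbered 1. Of all tested genes 77.3% and 74.6% were called in these fits. The snoRNP assembly factors called higher were 1 with upper-quartile factors or library totals. The members' median log2 fold change of -0.04 took either sign: -0.103 with upper-quartile factors, -0.123 with library totals, 0.0507 with the GC trend removed and 0.0468 with that and the block. The median over all tested genes moved with the scaling too, to -0.0718 with upper-quartile factors and -0.0915 with library totals. The members' median less that median was -0.032 with TMM, -0.0312 with upper-quartile factors and -0.0315 with library totals. It was 0.0546 with the GC trend removed and 0.0502 with that and the block.

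Leaving out single libraries gave 4258 to 4942 genes higher and 4199 to 4759 lower, 10 to 16 members higher and 13 to 15 lower, and a members' median of -0.0639 to 0.0232. For the further lists the ranges were 3 to 5 higher and 0 to 2 lower (polymerase I), 9 to 13 and 7 to 10 (SSU and 40S), 11 to 14 and 9 to 13 (60S) and 1 to 2 and 4 to 6 (snoRNP assembly). The ratio of summed CPM, PP2AcKO over PP2AcWT, ran from 0.905 to 0.944. The members that changed sign had not passed the edgeR test as reported: Pes1 (-0.0484 with upper-quartile factors, -0.0681 with library totals), Nop56 (-0.0113 with library totals), Rrs1 (-0.108 to 0.0575 on leaving out single libraries), and, with the GC trend removed without and with the block, Gar1 (0.102, and 0.101 with the block, where it passed as higher at adjusted p = 0.0462 by edgeR), Noc2l (0.0318 and 0.0313) and Rrs1 (0.0695 and 0.06995). Every member had at least 1376 counts in each library, so replicate spread rather than counting limits these values.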
